A study of Mus musculus with 3 samples.

Results

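Dense clusters of distal open chromatin in embryonic mouse liver, at an age of 13.5 days, were described as 650 stretches that together held 4295 of 28262 distal open regions. Open chromatin was mapped with DNase-seq, which reads the ends left where DNase I can reach and cut the DNA, in 3 libraries, labelled as biological replicates 1, 2 and 3 of 1 group. All came from wild-type animals of the strain C57BL/6N,129 that carry 1 copy of a yeast artificial chromosome (YAC), A20, which is a vector for long inserts and was not analysed here. No animals without the YAC and no second condition were part of the group, and the labels give the same donor identifier for separate liver samples, so no test between groups was possible and the spread over libraries may be technical. Whole liver tissue was used, so fewer cells of a type and less open chromatin per cell cannot be told apart in any value below.

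A peak is an interval that the authors listed as open in a library, with a signal in their own units that they scaled for each library. Peaks of the 3 libraries that overlapped were merged into 131881 regions. A region was kept if replicates 2 and 3 both had a peak there and it lay more than 1000 bp from every transcription start site (TSS) of the GENCODE basic annotation. Kept regions with gaps of at most 12500 bp were joined, and the members are the joined stretches with 5 or more regions, 650 of 17126. The score of a stretch in a library is the sum of the signal of its peaks. The stretches were thus chosen by the number and spacing of regions open in replicates 2 and 3, and the values of those libraries are given as a description. Peaks of replicate 1 helped to set the edges of merged regions but were not needed for membership. Without replicate 1 altogether there were 656 stretches. Distal thus depends on the annotation: 10.3% of member regions and 7.26% of other distal regions lay within 1000 bp of a RefSeq transcript start, and with the TSSs of the comprehensive GENCODE annotation there were 543 stretches.

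The liver is the main site of red cell formation in a mid-gestation mouse embryo, and erythroblasts outnumber the hepatoblasts that later form the hepatocytes. Distal open regions include enhancers, silencers and insulator sites, and genes that define a cell type often have many of them close together. In erythroblasts the factors GATA1 and TAL1 bind with cofactors such as FOG1, the product of Zfpm1, and KLF1 binds CACCC elements. Clusters of this kind are called super-enhancers or stretch enhancers when they are ranked by a histone mark or a bound factor, neither of which was measured here, so those names are not used. Transfer RNA (tRNA) genes are transcribed by RNA polymerase III from promoter elements inside the gene, the A box and the B box, and they often stand in clusters.

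The sequences of 6 member regions are given as examples, read from the RefSeq mouse genome GRCm38.p6, which is the build mm10, on the plus strand. The first 5 are the Zfpm1 region at chr8:122321701-122321980, regions R1 (chr11:32245701-32245920) and R2 (chr11:32250941-32251200) of the alpha-globin stretch, the Slc4a1 region at chr11:102363681-102363960 and the Ccnd3 region at chr17:47511161-47511440. They are shown because they were among the strongest regions of stretches described below. Capitals mark the motifs searched for GATA factors (AGATAA), KLF factors (CACCC) and NFE2 (TGAGTCA), on either strand. Other GATA forms such as TGATAA were not searched and stand in lower case, as in the Zfpm1 and Slc4a1 regions. The last is a region of the highest scoring stretch of tRNA genes at chr13:23432961-23433140, in which capitals mark the whole tRNA-Tyr gene, which lies on the minus strand at 23432990 to 23433077. R1, R2 and the tRNA region were chosen after their values were seen. By the rule used for the others, the region with the best value of its poorest rank over the 3 libraries, the alpha-globin region would have been chr11:32285061-32285300, which held none of these motifs. The picks of the E2f2 and Abt1 stretches, also not printed, held 3 and 2 KLF motifs and no AGATAA, though the E2f2 pick held TGATAA. The printed set is thus richer in AGATAA than the set the rule gave.
Zfpm1: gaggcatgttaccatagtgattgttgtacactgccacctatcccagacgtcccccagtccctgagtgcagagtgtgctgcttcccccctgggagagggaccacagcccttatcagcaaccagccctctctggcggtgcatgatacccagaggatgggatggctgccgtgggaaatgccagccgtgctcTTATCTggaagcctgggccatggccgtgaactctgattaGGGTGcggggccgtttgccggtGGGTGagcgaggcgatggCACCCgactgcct
R1: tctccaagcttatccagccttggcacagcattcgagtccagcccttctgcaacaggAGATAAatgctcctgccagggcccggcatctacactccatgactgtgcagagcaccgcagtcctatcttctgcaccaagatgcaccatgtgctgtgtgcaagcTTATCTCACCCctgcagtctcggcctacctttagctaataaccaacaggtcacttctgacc
R2: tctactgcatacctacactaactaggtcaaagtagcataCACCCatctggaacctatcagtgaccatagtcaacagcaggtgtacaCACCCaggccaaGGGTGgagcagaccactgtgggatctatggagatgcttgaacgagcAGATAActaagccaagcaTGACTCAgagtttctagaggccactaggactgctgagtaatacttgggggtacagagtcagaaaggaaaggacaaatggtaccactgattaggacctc
Slc4a1: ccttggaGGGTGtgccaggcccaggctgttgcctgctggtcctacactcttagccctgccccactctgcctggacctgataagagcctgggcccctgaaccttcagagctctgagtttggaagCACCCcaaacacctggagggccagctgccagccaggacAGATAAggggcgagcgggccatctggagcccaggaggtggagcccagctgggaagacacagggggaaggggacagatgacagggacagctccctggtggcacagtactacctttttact
Ccnd3: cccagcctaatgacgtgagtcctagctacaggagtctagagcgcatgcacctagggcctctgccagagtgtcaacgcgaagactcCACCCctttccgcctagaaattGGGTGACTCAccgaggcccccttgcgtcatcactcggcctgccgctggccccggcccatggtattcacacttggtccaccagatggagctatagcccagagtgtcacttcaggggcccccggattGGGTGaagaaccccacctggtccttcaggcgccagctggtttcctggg
tRNA-Tyr: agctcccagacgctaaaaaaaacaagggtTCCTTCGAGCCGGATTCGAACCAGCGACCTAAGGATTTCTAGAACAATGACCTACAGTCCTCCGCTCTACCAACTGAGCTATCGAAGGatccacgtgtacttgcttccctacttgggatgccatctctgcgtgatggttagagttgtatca
The Zfpm1 region held 1 GATA and 3 KLF motifs, R1 2 GATA motifs and 1 KLF motif, R2 1 GATA, 3 KLF and 1 NFE2, the Slc4a1 region 1 GATA and 2 KLF, and the Ccnd3 region 3 KLF and 1 NFE2, of which 1 KLF motif and the NFE2 motif overlap. Matches of this kind are common in the central 200 bp of all 28262 distal regions. The GATA motif searched was AGATAA, which 22.1% of those windows held. The KLF motif was CACCC, in 51.1% of windows, and the NFE2 motif was TGAGTCA, in 6.70% of windows.

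Most stretches were small and compact. The median stretch held 6 regions and spanned 19638 bp, and the extremes were 5 and 27 regions and 3200 and 95180 bp. Of the 650, 510 held at most 7 regions and 64 held 10 or more. The median gap between neighbouring regions was 2180 bp, and 17 neighbours touched. Every one of the 21 chromosomes had at least 1 stretch, and chromosome 11 had the most with 60. At the threshold, 282 stretches had 5 regions and 599 joined stretches with 4 regions stayed outside. Those with 5 regions had a median span of 15708.5 bp and median scores of 2.26, 7.81 and 8.58 in replicates 1, 2 and 3, and those with 4 regions had 11800 bp and 1.71, 5.59 and 5.82.

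The libraries differed in how many peaks the authors listed, 34369 in replicate 1, 122281 in replicate 2 and 60862 in replicate 3, and replicate 1 stood apart from the others. Of the 4295 member regions, 1618 (37.7%) also had a peak in replicate 1. Members made up 15.2% of distal regions and held 19.3%, 24.3% and 25.5% of the summed distal signal in replicates 1, 2 and 3, or 23.0% ± 3.33 (SD, n = 3). Stretch scores had medians of 2.94, 11.4 and 12.2 and highest values of 44.4, 91.8 and 82.7. Across the 650 stretches, which share the same 3 libraries and differ in their number of regions, the Spearman correlation of scores was 0.882 for replicates 2 and 3. It was 0.747 for replicates 1 and 2 and 0.485 for replicates 1 and 3. Requiring a peak in all 3 libraries left 69 stretches. A rule on replicates 1 and 3 left 71 and a rule on replicates 1 and 2 left 118. Each of these rules required a peak in replicate 1. The loss of replicate 2 or 3 thus cannot be told apart from that requirement.

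**Figure D1:**
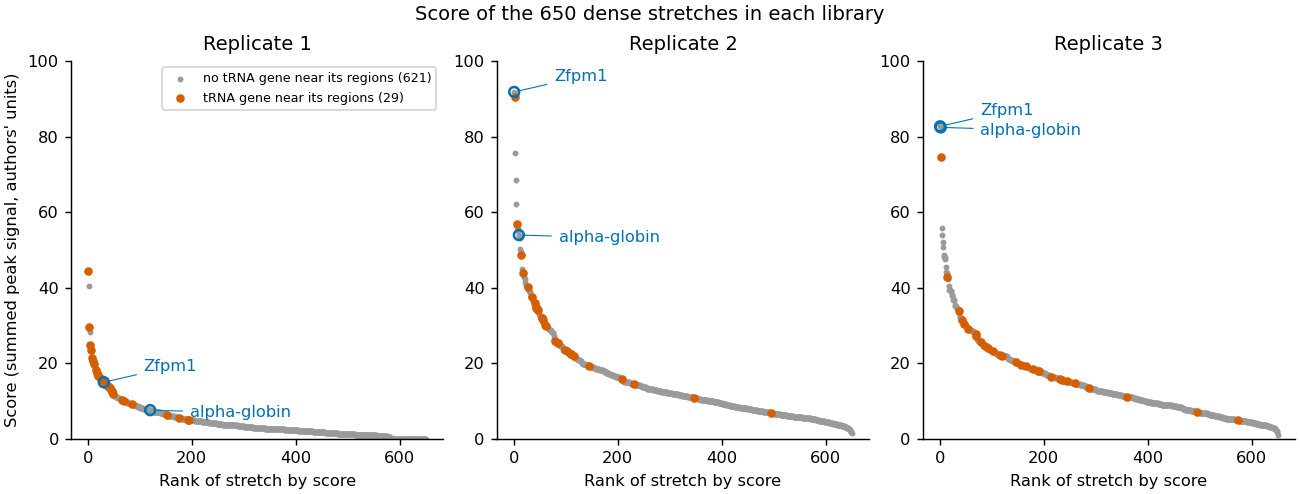
Score of each of the 650 stretches (vertical axis, summed peak signal in the authors' units) against its rank (horizontal axis) in replicates 1, 2 and 3. Orange points are the 29 stretches with a region within 1000 bp of a tRNA gene, and blue rings mark the Zfpm1 and alpha-globin stretches. The Zfpm1 stretch ranked 31, 1 and 1 and the alpha-globin stretch 120, 10 and 2, whereas tRNA stretches crowd the top of replicate 1.

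The stretch with the most regions lay in introns of Zfpm1, which encodes the GATA1 cofactor FOG1. It spanned chr8:122273241-122349940 and held 27 regions, all of them intronic. Its score was 14.96 in replicate 1, 91.8 in replicate 2 and 82.7 in replicate 3, the highest of all stretches in replicates 2 and 3 and rank 31 in replicate 1. Signal was uneven along it. The strongest region, printed above, had 3.15, 14.6 and 13.7, followed by an intronic region with 2.08, 11.7 and 12.9 and another with 2.40, 9.59 and 11.1, while many of the rest stayed below 2.5 in every library. Replicate 1 had a peak at 6 of the 27 regions, including these 3. Of the 27, 6 overlapped enhancer fragments of Zfpm1 that RefSeq curates from published experiments, and the printed region was among them.

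The alpha-globin stretch, chr11:32237121-32298820, covered introns of Nprl3, where most of the enhancers of the alpha-globin genes lie, and reached past Hba-x, Hba-a1, Hbq1b and Hba-a2. It held 17 regions and scored 7.57, 53.9 and 82.4, rank 120, 10 and 2. The known elements could be told apart one by one. R1 had a signal of 1.59, 9.81 and 16.2 and R2, whose deletion in mice lowers alpha-globin transcription, had 1.07, 6.74 and 16.1. R3 had no listed peak in replicate 1 and 4.86 and 9.14 in replicates 2 and 3, Rm had none and 1.85 and 4.53, and R4 had none and 4.94 and 6.55. These 5 enhancers were all higher in replicate 3 than in replicate 2. The constitutive site that RefSeq places farther from the globin genes than R1 did not share that order, with 1.90, 3.85 and 1.74. Nor did HS-29, which RefSeq labels an erythroid site, with no listed peak in replicate 1 and 1.64 and 1.19 in replicates 2 and 3. The order was thus not shared by every erythroid site. Replicate 1 had a peak at 5 of the 17 regions, among them R1, R2 and the constitutive site. The adult genes Hba-a1 and Hba-a2 are near-identical copies, and regions close to them had up to 39.8% of 31-base words that also occur elsewhere in the genome.

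The beta-like globin genes did not reach the threshold. Their largest joined stretch, chr7:103859181-103870980 by Hbb-y, the embryonic beta-like gene, held 4 regions with scores of 4.11, 17.5 and 30.9. Hbb-bt, an adult beta-globin gene, also had a stretch of 4 regions, with no listed peak in replicate 1 and scores of 2.85 and 7.43 in replicates 2 and 3. The score by Hbb-y in replicate 3 exceeded the median of 12.2 for dense stretches. Between these 2 stretches, Hbb-bs had 2 regions at chr7:103826304-103826800 and Hbb-bh1 had 1 at chr7:103844681-103844940. The locus was thus divided into several joined stretches, and its place outside the members depends on the joining gap of at most 12500 bp.

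**Figure D2:**
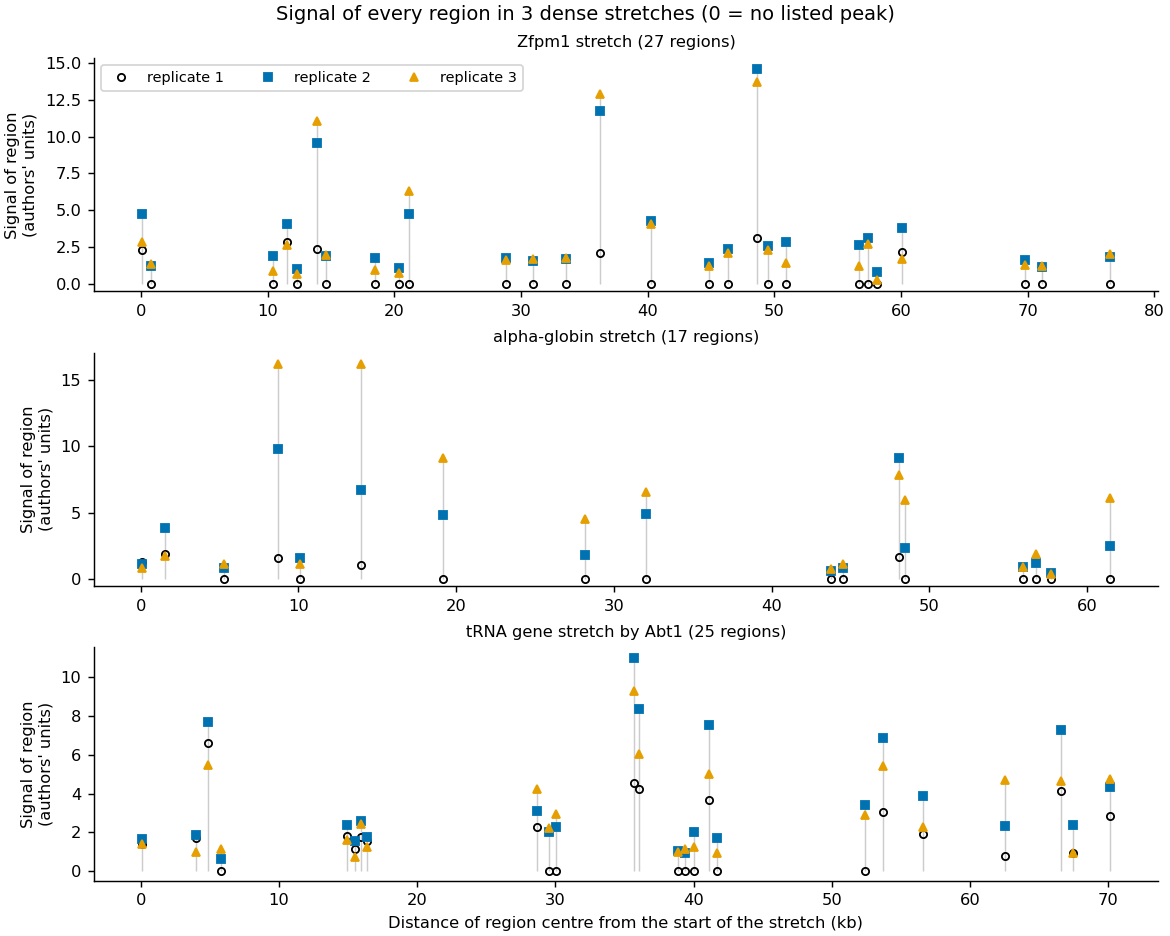
Signal of every region (vertical axis, authors' units, 0 where no peak is listed) against the distance of its centre from the start of the stretch in kb, for the Zfpm1 stretch (27 regions), the alpha-globin stretch (17 regions) and the tRNA gene stretch by Abt1 (25 regions). Open circles are replicate 1, squares replicate 2 and triangles replicate 3. Replicate 1 has no listed peak at most regions of the Zfpm1 and alpha-globin stretches, and has a peak at 17 of 25 regions of the tRNA gene stretch.

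A gene was assigned a stretch if its body overlapped the stretch or if it had the nearest protein-coding TSS to the middle of the stretch. By this rule 840 of 21938 protein-coding genes, or 3.83%, had a dense stretch. The lists of cell type markers were read against that percentage and were chosen with earlier results of these data known. Of the globin genes 4 of 10 had 1, all through the alpha-globin stretch. Erythroid genes had 9 of 35, blood stem and progenitor genes 5 of 19, haem and iron genes 4 of 20, and housekeeping genes 4 of 16, so red cell genes did not stand above housekeeping genes in this count. Hepatoblast genes had 1 of 32 and myeloid genes 1 of 20, close to the background. Megakaryocyte (12 genes), lymphoid (14), mature hepatocyte (18), endothelial (17), mesenchymal and stellate (16), neural (17) and muscle genes (13) had 0. In lists of 12 to 18 genes a count of 0 also lies near the background of 3.83%. The assignment can miss distant elements. A dense stretch overlapped a curated enhancer fragment named for Gata2, while the largest joined stretch assigned to Gata2 held 1 region. Taking any gene with a TSS within 50000 bp of a stretch gave 2 hepatoblast and 8 erythroid genes. The share of all protein-coding genes was then 7.07%. With a peak in all 3 libraries required, and also in the rules without replicate 2 or without replicate 3, the erythroid and globin counts were 0 and the housekeeping count was 2. Far fewer genes of any kind had a stretch under these rules, with 0.410% of all protein-coding genes where all 3 libraries were required, 0.419% without replicate 2 and 0.716% without replicate 3, so a count of 0 among 35 or 10 genes lies near the background.

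**Figure D3:**
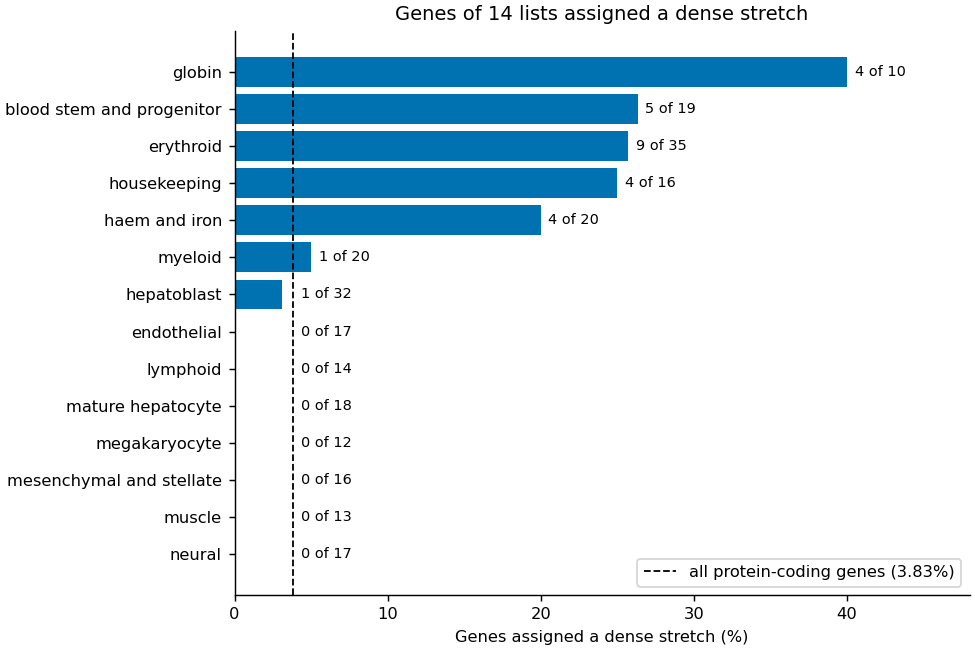
Percentage of the genes of each of 14 lists that were assigned a dense stretch (horizontal axis), with the counts beside the bars. The dashed line is the 3.83% of all protein-coding genes. Globin, progenitor, erythroid, housekeeping and haem and iron genes lie to the right of the line. In 7 lists of other cell types the count was 0, which lies near the background for lists of 12 to 18 genes.

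The 9 erythroid genes were the regulators Tal1, Lmo2, Zfpm1 and Cited2, the membrane genes Epb41, Rhd and Slc4a1, the carbonic anhydrase gene Car2, and Tent5c. Slc4a1 encodes band 3, the anion exchanger of the red cell membrane, and its 5 regions at chr11:102363681-102375500 scored 4.18, 28.8 and 34.6. The printed intronic region contributed 2.61, 14.7 and 16.1 of these. Epb41 encodes protein 4.1 of the membrane skeleton, and its 5 regions scored 5.11, 30.1 and 34.5, rank 190, 62 and 35. Each of these genes had a replicate 1 peak at 2 of 5 regions.

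Lmo2, whose product bridges GATA1 and TAL1, had 7 regions with scores of 4.79, 18.0 and 25.8. Tal1 itself had 5 regions with scores of 5.71, 16.1 and 9.49, so unlike Lmo2 it was higher in replicate 2 than in replicate 3. Cited2, which encodes a transcriptional coregulator, had 5 regions with no peak in replicate 1 and scores of 5.76 and 11.9 in replicates 2 and 3, and its TSS lay 127537 bp from the middle of the stretch. Other erythroid regulators had smaller clusters. Gata1 and Klf1 each had a joined stretch of 3 regions and Gfi1b 1 region. Among the 35 erythroid genes 7 more had a stretch of 4, and 3 had no distal region assigned. For all protein-coding genes counted by name the same figures were 684 with 4 and 10601 with none, of 21911.

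Of the haem and iron genes, Alad, Blvrb, Fech and Glrx5 had dense stretches. Alad encodes the second enzyme of haem synthesis, and its 13 regions at chr4:62505401-62521325 scored 8.21, 42.7 and 39.4, rank 103, 20 and 19. Glrx5, a mitochondrial iron-sulphur cluster protein, had 10 regions with scores of 4.90, 32.4 and 36.9. Fech encodes ferrochelatase, which inserts iron into the porphyrin ring, and its 8 regions scored 1.47, 15.9 and 29.1 with 1 region in replicate 1. Alas2, the erythroid form of the first enzyme, had a stretch of 2 regions with no listed peak in replicate 1 and scores of 0.976 and 3.03. The 5 progenitor genes were Lyl1, Cbfa2t3, Ikzf1, Zfp36l2 and Cd34. Among them Lyl1, a relative of Tal1, had 9 regions with scores of 14.9, 32.2 and 15.3. Nacc1, Nfix and Trmt1 were assigned the same stretch. Cbfa2t3, a corepressor found in TAL1 complexes, had 5 regions with 5.24, 28.04 and 29.9.

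Stretches of red cell genes and of housekeeping genes were set side by side in replicate 1, the library their choice did not use, with no test. Replicate 1 had a peak at 22 of 73 regions (30.1%) of the 9 erythroid stretches, 12 of 36 (33.3%) of the haem and iron stretches and 5 of 17 (29.4%) of the alpha-globin stretch. It had a peak at 23 of 29 regions (79.3%) of the 4 housekeeping stretches and at 1618 of 4295 (37.7%) of all members. AGATAA was found in 24 of the 73 erythroid regions (32.9%), 3 of the 29 housekeeping regions (10.3%) and 24.4% of all member regions. Of the 29 housekeeping regions 8 lay within 1000 bp of a tRNA gene. Among the housekeeping genes, Actb encodes beta-actin and its stretch scored 10.8, 26.3 and 25.9, rank 60, 78 and 74. The only myeloid gene, Fcgr1, was nearest to a stretch with 3 of 5 regions by tRNA genes, and the only hepatoblast gene, the keratin gene Krt8, had all 6 regions in replicate 1 and scores of 15.5, 25.2 and 15.8. No dense stretch was assigned to Alb, Afp or Hnf4a, which mark hepatoblasts. Hnf4a had a joined stretch of 3 regions with scores of 3.07, 3.94 and 2.14, and Alb had 1 region. No distal region was assigned to 11 of the 32 hepatoblast genes. That share was lower than the 10601 of 21911 for all protein-coding genes counted by name.

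Ranked by the poorest of its ranks over the 3 libraries, the top of the list was a mixed set of genes. The first 15 stretches included the Zfpm1 stretch. The stretch of E2f2, which encodes a cell cycle transcription factor, and of Id3 held 15 regions and scored 18.4, 56.0 and 50.7, rank 14, 7 and 7. Ccnd3 encodes cyclin D3, and its 6 intronic regions at chr17:47508021-47536280 scored 15.3, 40.8 and 35.2. The printed Ccnd3 region had 7.27, 20.1 and 10.8. The stretch of Mnt, which encodes a repressor that pairs with MAX, scored 23.4, 68.5 and 42.6, and that of Ptma, the prothymosin alpha gene, 21.5, 55.1 and 36.8. Cirbp, an RNA-binding protein gene, and Nr1d1, which encodes a nuclear receptor of the circadian clock, scored 17.5, 62.1 and 47.5, and 15.9, 53.1 and 39.0. Tfap4, Prrc2b and Rexo1 were also in this set. Of the 15, 3 were tRNA gene stretches.

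The stretches by Igf2bp3 and Mid1 were also among these 15, and both held sequence that occurs more than once in the genome. In the Igf2bp3 stretch 1 region had 31.8, 45.9 and 28.03 of its scores of 40.5, 75.7 and 53.9, and 60.5% of the 31-base words of that region occurred elsewhere too. In the Mid1 stretch, with scores of 28.4, 53.8 and 45.4, the mean over regions was 90.6%. Mid1 reaches into the pseudoautosomal region of the mouse X and Y chromosomes. How the authors treated reads that align to several places is not given in the sources used here, so the signal of these stretches is uncertain.

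Within a stretch the signal was usually concentrated in few regions. The strongest region held a median of 36.9% of the score in replicate 2 and 39.1% in replicate 3, and in 473 of 650 stretches (72.8%) it was the same region in both. Replicate 1 had a peak at 533 of the 650 regions that were strongest in replicate 2 (82.0%) and at 1085 of the 3645 others (29.8%). In 16 stretches every region had a peak in replicate 1, as by Tex44, Gtf3c5 and Hook2, and in 68 none did. Those without any included the stretches of Bcl2l1, an anti-apoptotic gene needed for red cell survival, with scores of 12.3 and 19.2 in replicates 2 and 3, of Pim1, a kinase gene, with 19.4 and 18.3, and of Dapp1 with 17.0 and 24.5 over 14 regions.

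Some member stretches were clusters of tRNA genes, which were looked at after the values were seen. Of the 4295 regions of dense stretches 193 (4.49%) lay within 1000 bp of a RefSeq tRNA gene, against 93 of 23967 other distal regions (0.388%), and 141 of the 193 overlapped the gene itself. They fell into 29 stretches, in 26 of which at least 50% of the regions were by tRNA genes, and 155 of the 403 tRNA genes of the annotation lay within 1000 bp of a member region. The annotation of TSSs used here leaves 319 of the 403 tRNA genes more than 1000 bp from any TSS, so these regions are distal only in the sense of the rule. A match to the consensus of the B box, the internal promoter element, was found in 45.1% of the 193 regions, in 0.0975% of the other member regions and in 0.446% of all distal regions.

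The stretch of tRNA genes with the most regions, chr13:23397001-23467200 by Abt1 and Btn1a1, held 25 regions and 22 tRNA genes. It scored 44.4, 90.5 and 74.6, rank 1, 2 and 3. The printed tRNA-Tyr region had 4.25, 8.36 and 6.04. Another stretch on chromosome 13, by Zfp184, chr13:21906462-21941040, with 18 regions and 15 tRNA genes, scored 29.6, 56.9 and 42.9, and the stretch by Olfr1423 on chromosome 19 scored 20.6, 43.8 and 33.9. On chromosome 13 there were 7 of the 29 stretches. The tRNA gene stretches ranked high in replicate 1, with a median rank of 35, and lower in replicate 2 (60) and replicate 3 (147). They held 15.6%, 9.46% and 6.95% of the summed score of all members in replicates 1, 2 and 3. Replicate 1 had a peak at 179 of their 258 regions (69.4%), against 1439 of 4037 regions (35.6%) of the other members. Among the 69 stretches left when all 3 libraries were required, 20 (28.99%) were tRNA gene stretches. Without these 29 stretches, the Spearman correlations across the other 621 were 0.878 for replicates 2 and 3, 0.721 for 1 with 2 and 0.452 for 1 with 3.

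Presence in replicate 1 was compared between member regions and the other distal regions at like signal, since its peaks were not needed for membership. All distal regions were divided into 5 equal groups by their mean rank of signal in replicates 2 and 3. Over all signals the shares were close, 37.7% (95% Wilson interval 36.2 to 39.1) of member regions and 39.2% (38.6 to 39.9) of other regions. Member regions lay more often in the strong groups, and within each group their share with a replicate 1 peak was lower. The shares were 5.16% of member and 12.6% of other regions in the weakest group, 6.39% and 26.8% in the next, 14.6% and 39.5% in the middle, 30.8% and 53.7% in the next and 66.4% and 75.1% in the strongest. In the middle group the intervals were 12.3 to 17.2 for 116 of 797 member regions and 38.1 to 40.9 for 1916 of 4854 other regions, a difference of -24.9 percentage points. Median signals there were 0.788 and 0.713 for member regions in replicates 2 and 3, and 0.813 and 0.671 for other regions. The intervals cover counting error only, regions of a stretch are not independent, and replicate 1 is 1 library, so no test was made.

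Both groups of regions were also divided by the GATA motif, a split chosen after the data were seen. Away from tRNA genes, member regions of the middle group with AGATAA had a replicate 1 peak in 2 of 176 cases (1.14%), against 153 of 1009 other regions (15.2%). Without AGATAA the shares were 112 of 608 (18.4%) and 1759 of 3837 (45.8%). The share was thus lower with the motif in both classes and lower in member regions with or without it. Regions with a long CTCF motif stood at the other end, with 3 of 4 member regions and 127 of 153 (83.0%) other distal regions of the middle group. The depth of replicate 1, its makeup of cells and its peak threshold were not measured apart, and their part in these differences was not tested.

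**Figure D4:**
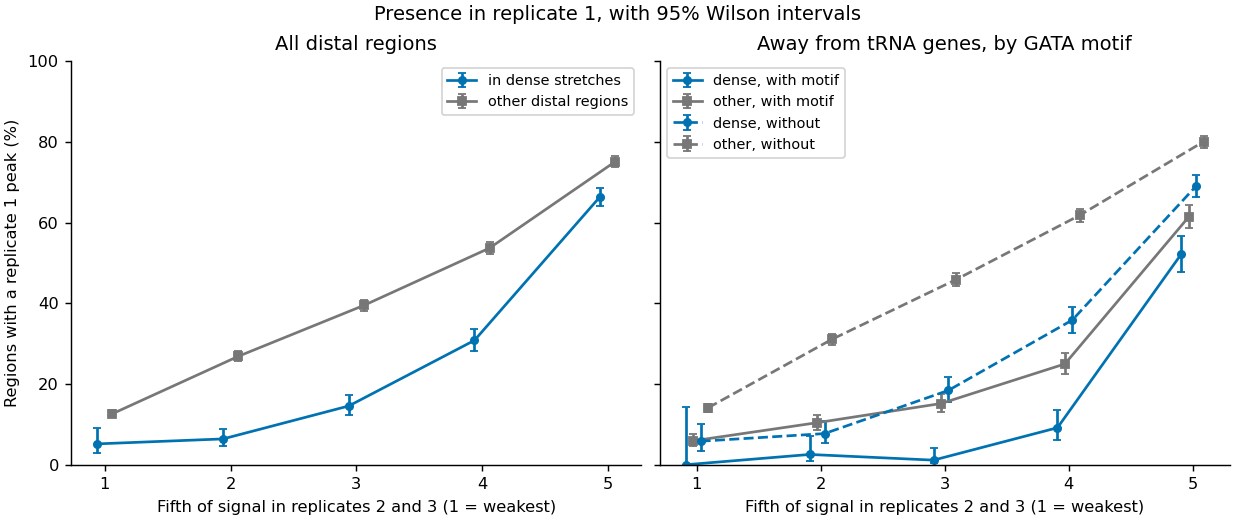
Percentage of regions with a replicate 1 peak (vertical axis) in the 5 groups of signal in replicates 2 and 3 (horizontal axis, 1 is the weakest), with 95% Wilson intervals as bars. The left panel shows regions of dense stretches (blue circles) and other distal regions (grey squares), and the right panel shows the same classes away from tRNA genes with AGATAA (solid) or without it (dashed). The dense regions lie below the other regions in all 5 groups of the left panel, at 14.6% against 39.5% in the middle group.

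In sequence and position, member regions were like other distal regions in most respects. Introns held 53.8% of member regions and 54.4% of other regions, intergenic DNA 40.5% and 39.3%, and exons 5.66% and 6.33%. The median width was 240 bp in members and 220 bp in other regions, and the median distance to a TSS 8803 bp and 11031 bp. Member regions held more footprints, which are short protected intervals that the authors called within accessible DNA, with means of 0.924, 3.60 and 2.75 per region in replicates 1, 2 and 3 against 0.838, 2.97 and 2.17. Their signal was also higher, with medians of 1.29 and 1.18 in replicates 2 and 3 against 0.757 and 0.644, so the footprint counts cannot be told apart from signal. Away from tRNA genes the mean footprint counts were 0.835, 3.57 and 2.70 in member regions against 0.831, 2.97 and 2.17. In replicate 1 they were thus nearly equal when regions without a peak there were included. Per region with a replicate 1 peak, the means in that library were 2.34 in member regions and 2.13 in other regions. Curated regulatory features of RefSeq overlapped 79 member regions (1.84%) in 37 stretches, against 0.601% of other regions.

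Away from tRNA genes, motif shares in the central 200 bp were compared without a test. AGATAA was found in 25.1% of member regions and 21.7% of other regions, CACCC in 56.0% and 50.4%, TGAGTCA in 7.97% and 6.55%, and the SP1 motif GGGCGG in 16.0% and 12.48%. The long CTCF motif was the clearest in the other direction, with 1.51% of member regions and 2.63% of other regions. The liver factor motifs were rare in both, with HNF4 (CAAAGTCCA) in 0.268% and 0.423% and FOXA (TGTTTAC) in 2.17% and 2.87%. The longer composite of an E-box and a GATA motif, which holds AGATAA within it, was found in 1.29% and 1.14%. These letters are a description of the windows and not a sign that a factor was bound.

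**Figure D5:**
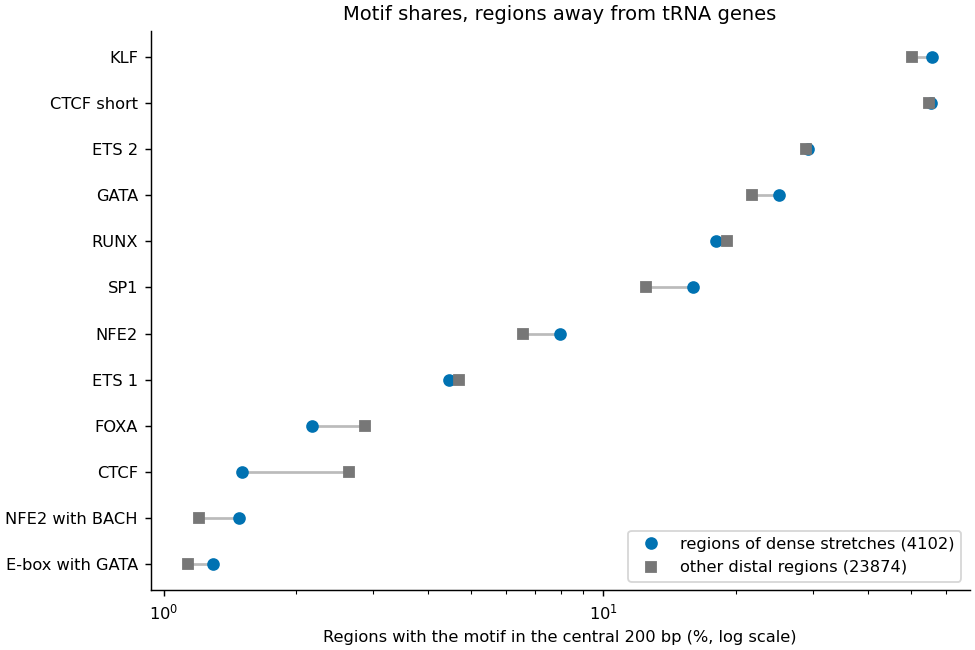
Percentage of regions with each motif in the central 200 bp (horizontal axis, log scale) for regions of dense stretches away from tRNA genes (blue circles, 4102 regions) and other distal regions away from tRNA genes (grey squares, 23874 regions). Motifs found in at least 1% of distal regions are shown, with CCGGAA as ETS 1 and AGGAAG as ETS 2. GATA, KLF, SP1 and NFE2 motifs are at a higher share in dense stretches, and the long CTCF motif and the FOXA motif at a lower share. A short CTCF motif, CCCTC, is at a slightly higher share in dense stretches.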

How the data were processed

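DNase-seq was measured in 3 liver libraries. The authors called peaks per library on its filtered alignments, as the deposited text listings state. The caller, its version and its threshold were not given in the sources used here. A deposited signal of a peak is scaled for each library by the authors, and depth is unknown. Of 2 deposited peak lists per library the one with more rows was used. The deposited false discovery rate file gives a q-value per interval, at most 0.05, and only that of replicate 1 was used. The deposited footprints carry a constant of no stated meaning and were only counted.

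Peaks were merged where they overlapped by at least 1 bp. The TSSs were those of GENCODE M21 (basic, mm10), and tRNA genes, curated features and sequence from RefSeq GRCm38.p6. Motifs were searched on both strands in the 200 bp about the centre of a region. A 31-base word was called copied if it occurred elsewhere in the genome on either strand. Python 3.11.15, numpy 2.4.6, pandas 2.3.3, scipy 1.17.1 and numba 0.67.0 were used, and the joining steps were tested on simulated data.

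Members, gene lists and motifs were chosen with earlier results of these data known. Named stretches were the 15 of best worst rank of score, the 5 with most regions, the 3 longest and the 5 densest. Also named were those of globin genes or of 16 other genes (regulators, with Afp and Alb), and up to 4 per gene list. The rest were those with all, none, or the most different rank in replicate 1. Blvrb, Car2, Rhd, Cited2, Tent5c and Cd34 were named as members of short list counts, and other joined stretches of list genes after their values were seen. With 1 group there was no test over samples. The comparisons with tRNA genes, copied words, the B box, the GATA and CTCF splits of replicate 1, the middle-group difference under each alternative and the strongest region of a stretch were added after the data were seen. Some of the stretches that the rule names are not reported here.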

Additional observations from a re-analysis of the deposited data

Results flagged for a closer look

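The false discovery rate positions of replicate 1, which entered no comparison above, held a signal at some member regions without a peak. Of 2677 regions of dense stretches without a listed peak in replicate 1, 120 (4.48%) held positions with a q-value of at most 0.05. The regions were then moved by 5000 bp, and only the 2140 that met no listed open region there were counted. Their share was 0.561%. Other distal regions without a replicate 1 peak gave 4.602% of 14560 in place and 0.315% of 13630 moved.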

How the results depend on the processing

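No paired analysis was possible because the 3 libraries form 1 group. Stricter peak lists left 270 stretches with 10.1% of distal regions and 14.9% of distal signal, a replicate 1 peak at 33.3% of member regions, 2 erythroid genes and a middle-group difference (member minus other regions) of -19.6 percentage points, against 650, 15.2%, 23.0%, 37.7%, 9 and -24.9. Gaps of at most 5 kb left 256 stretches, 5.52% of regions, 8.998% of signal and 4 erythroid genes, and gaps of at most 25 kb gave 1193, 31.6%, 43.5% and 20. A minimum of 7 regions left 228 stretches, 7.24%, 12.1% and 4 erythroid genes. A distance of more than 2500 bp from a TSS gave 12.2% of regions and 18.4% of signal. A peak in all 3 libraries left 69 stretches, 3.94%, 6.58% and 0 erythroid genes. Equal numbers of the strongest peaks left 276 stretches, 14.7%, 17.8%, 3 erythroid genes and a replicate 1 peak at 50.1% of member regions. Leaving out each replicate in turn gave 71 to 656 stretches and 4.11% to 15.3% of regions. The same runs gave 6.51% to 25.1% of signal and 0 to 9 erythroid genes. The low ends came without replicate 2, and 0 erythroid genes also without replicate 3. Both of those runs required a peak in replicate 1, which the main rule did not, so the changes cannot be told apart. Of the alternatives added after the data were seen, leaving out tRNA regions gave 14.5% of regions and a replicate 1 peak at 35.6%, and the comprehensive annotation gave 13.4% of regions. The middle-group difference kept its sign under all 11 alternatives that could give it and moved by more than its counting interval only with stricter peaks. The erythroid counts are to be read against the share of all protein-coding genes that had a stretch, 3.83% by the rule used here. That share was 1.60% with stricter peak lists, 1.34% with gaps of at most 5 kb, 10.2% with gaps of at most 25 kb, 1.47% with at least 7 regions, 0.410% with a peak in all 3 libraries, 1.74% with equal numbers of peaks, and 3.87%, 0.419% and 0.716% without replicates 1, 2 and 3. Replacing the summed signal by the highest signal or by signal per region kept 8 and 5 of the 15 stretches ranked first. Depth is unknown, and the causes of these changes were not tested beyond fewer or more regions entering the rule.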

Other observations

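Some stretches had ranks that differed widely between replicate 1 and the other libraries. A stretch of 20 intronic regions at chrX:50566441-50623440 lay in Firre, an X-linked gene for a long non-coding RNA built of repeats, and was assigned to Olfr1324 as the nearest protein-coding gene. It scored 0.940, 17.6 and 20.5 in replicates 1, 2 and 3, rank 539, 176 and 144, with 1 region in replicate 1, and its regions had weak and even signals, with 28.2% copied words on average. In the opposite direction, the stretch by Vmn1r2, a vomeronasal receptor gene, held 15 regions at chr4:3050081-3084500 and scored 11.4, 7.36 and 6.92, rank 52, 474 and 502, with 12 regions in replicate 1. The stretches by Sfi1 and Gm21119 also ranked higher in replicate 1, with scores of 10.8, 6.20 and 8.21 and of 6.08, 4.65 and 3.65. Copied words made up 19.1% of the Vmn1r2 stretch, 7.38% of the Sfi1 stretch and 85.8% of the Gm21119 stretch. The part of multiply aligned reads in these values was not tested.

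Long and tightly packed stretches differed in score. The longest, 95180 bp by Gse1, held 17 regions and scored 11.9, 44.0 and 39.3, rank 48, 17 and 20, and a stretch of 70380 bp by Pdcd4 and Rbm20 held 10 regions and scored 1.76, 10.8 and 9.63, rank 448, 349 and 404. The shortest, 3200 bp by Haao and Mta3, held 5 regions and scored 2.50, 8.50 and 8.72, rank 371, 428 and 447. The stretch with the most regions per length held 6 regions in 3800 bp by Prdm10 and scored 2.05, 11.9 and 18.6, rank 414, 308 and 175. Clk3, a kinase gene, had 9 regions with scores of 1.11, 19.7 and 24.4, and ranked 514, 138 and 90.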
